A study of Homo sapiens with 9 samples.

Results

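Wnt proteins are secreted, lipid-modified ligands that bind frizzled (FZD) receptors on the cell surface. With the co-receptors LRP5 and LRP6 they stabilise beta-catenin, and with other co-receptors they act on cell polarity and movement without it. Secreted antagonists of the SFRP and DKK families hold the signal down, and R-spondins, which bind LGR receptors, raise it. In fibroblasts of the skin, Wnt ligands and their antagonists take part in the exchange of signals with the epidermis and in matrix remodelling. The genes described here are the 50 of 26196 gene symbols in the expression table whose names place them in these families. They comprise 19 WNT ligands, 10 FZD receptors, 2 co-receptors, 10 secreted antagonists (the SFRP family with FRZB, the DKK family and WIF1), 4 R-spondins, 3 LGR receptors and the 2 AXIN scaffold genes.

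RNA was sequenced from HCA2, an established line of human foreskin fibroblasts, in 3 groups of 3 libraries. The PD-L1-positive and PD-L1-negative groups were senescent cells sorted by PD-L1, a surface protein that restrains T cells through PD-1. The labels' protocols state that senescence was induced with the DNA-damaging drug doxorubicin at 100 nM for 24 hours, followed by 100 nM BI-2536, which blocks the mitotic kinase PLK1 and is given there as a means of removing cells that still divide, for 12 days in total. The normal group is labelled proliferative and also PD-L1 positive, its libraries carry the same treatment text as the senescent ones, and no label says whether these cells were sorted. All groups come from 1 cell line grown in DMEM with 10% FBS, and whether replicates were separate cultures is not given, so each p-value measures only the spread between these libraries.

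Expression is given as FPKM (fragments relative to transcript length and library depth), so that levels can be compared between genes. Depth, estimated from the steps between low values, was 11600000 to 17700000 fragments per library. Fibroblast markers were abundant in every library (10 of 10 genes, summed FPKM 12941 to 14109 in PD-L1-positive, 14282 to 16201 in PD-L1-negative and 8989 to 11492 in normal libraries). Of the keratinocyte, melanocyte, endothelial and leukocyte markers, 5 of 6, 4 of 6, 4 of 5 and 4 of 6 were under 1 FPKM in every library. The exceptions were KRT10, PMEL and MITF, TEK, and CD14 and CD68. Summed leukocyte markers, nearly all from the lysosomal gene CD68, reached 56.8 to 67.7 FPKM in PD-L1-positive, 54.1 to 63.2 FPKM in PD-L1-negative and 32.5 to 34.9 FPKM in normal libraries. Summed melanocyte markers, mostly from MITF, reached 10.8 to 12.1 FPKM in PD-L1-positive, 11.4 to 12.2 FPKM in PD-L1-negative and 4.86 to 8.81 FPKM in normal libraries, and the part of these markers in the results was not tested. CD274, which encodes PD-L1, had 1.23, 1.32 and 1.38 FPKM in PD-L1-positive libraries, 0.677, 0.708 and 0.909 FPKM in PD-L1-negative libraries and 6.23, 3.48 and 2.89 FPKM in normal libraries. The sorted groups did not overlap, and both were below the normal libraries. In the test described below, CD274 was not called between the sorted groups (log2 difference 0.52, SE 0.23). Separate ranges between these groups were found for 9.42% of all genes tested. The normal libraries differed among themselves: MKI67, a marker of dividing cells, had 4.65, 4.49 and 6.09 FPKM in PD-L1-positive, 3.97, 1.64 and 4.02 FPKM in PD-L1-negative and 61.3, 33.4 and 12.7 FPKM in normal replicates 1, 2 and 3.

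Differences were tested with limma on log2(FPKM + 0.5) in 1 fit of all 9 libraries, over 12763 genes with a mean of at least 0.5 FPKM, and called at an adjusted p under 0.05 (Benjamini-Hochberg over all genes tested). A difference on this scale understates the change of genes near or below 0.5 FPKM. Of the 50 genes, 21 passed the filter on low values and 29 did not. In senescent against normal cells (the mean of both sorted groups minus normal), 8 of the 21 were higher (WNT2, WNT5A, LRP6, SFRP1, SFRP2, SFRP4, DKK3 and RSPO3), 4 were lower (WNT3, FZD1, FZD2 and DKK1) and 9 were not called. The share called was 57.1%, against 53.8% of all genes tested (23.9% higher and 29.9% lower), so the family as a whole changed about as often as the transcriptome. Of the higher genes, SFRP2, SFRP4 and RSPO3, passed the filter only through the senescent libraries. Without these 3 genes, 5 of 18 were higher and 4 lower. The median difference was 0.14 for the 21 genes and -0.04 for all genes, on the log2 scale. The 3 genes that had to be higher raise the first value. Among the other 18, WNT5B and LRP5, each at -0.06, lie in the middle. The 6 senescent and 3 normal libraries did not overlap for 10 of the 21 genes (8 higher and 2 lower), against 48.7% of all genes tested (21.5% higher and 27.3% lower). The 8 again include SFRP2, SFRP4 and RSPO3. In bulk RNA, fewer cells expressing a gene and less RNA per cell cannot be told apart.

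**Figure D1:**
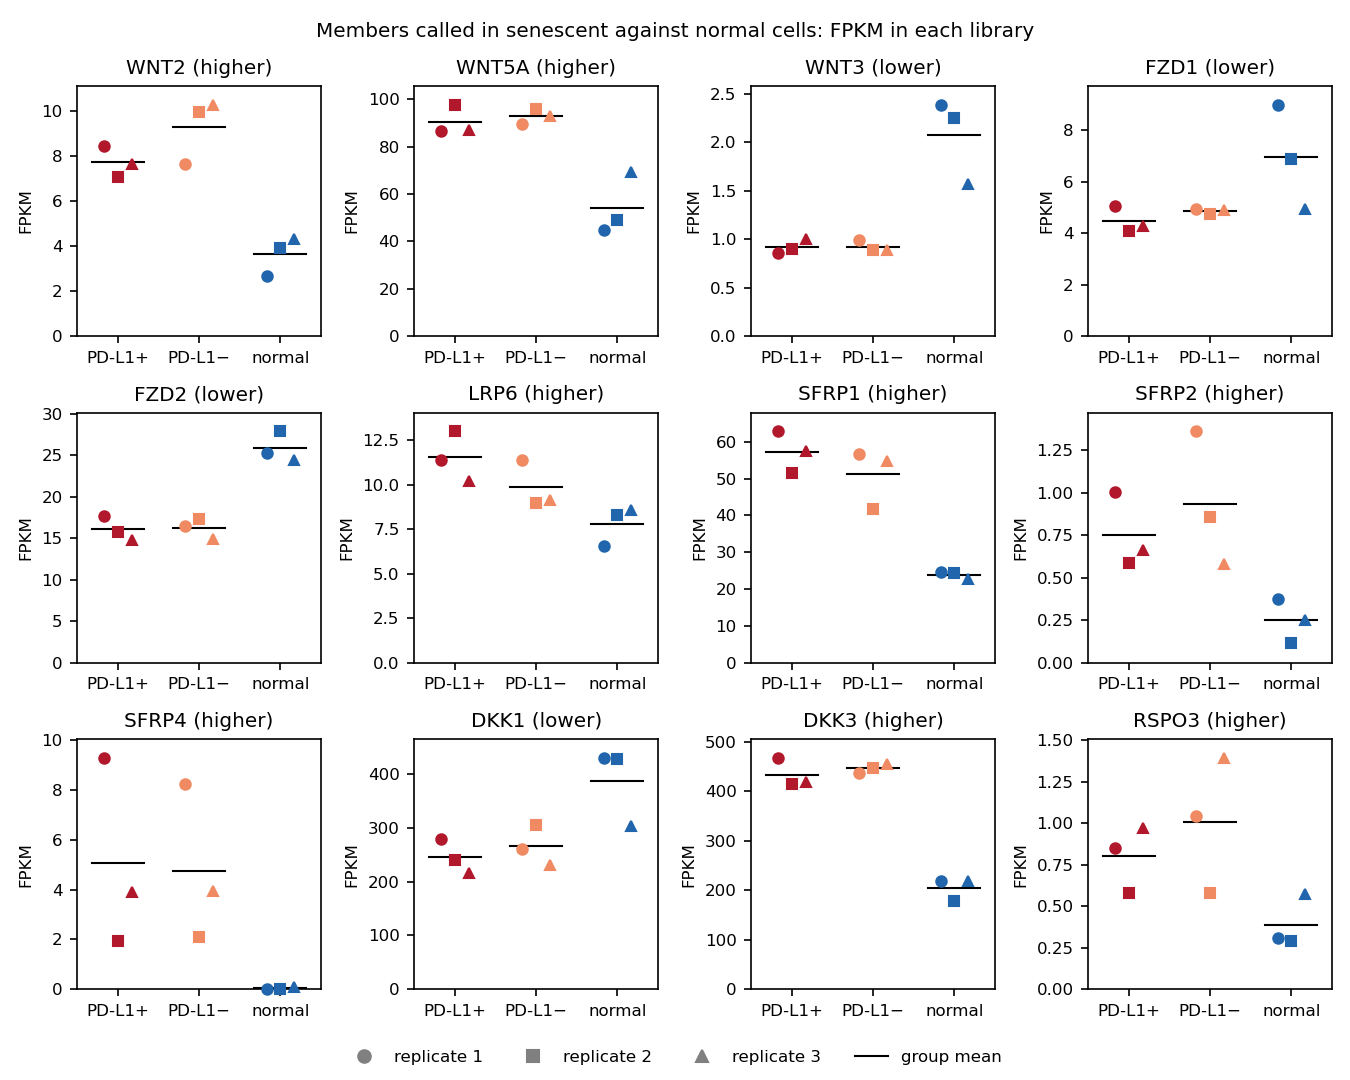
FPKM of the 12 genes called in senescent against normal cells, 1 panel per gene with its own axis from 0; points are libraries, with a symbol for each replicate number, and lines are group means (n = 3). PD-L1-positive and PD-L1-negative libraries lie close together, and for 10 of the 12 genes normal replicate 3 is the normal library nearest to the senescent mean. This count was not made over all genes.

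Among the ligands, WNT5A and WNT5B, which signal mainly without beta-catenin, made up most of the WNT RNA, and WNT5A rose in senescent cells. WNT5A had 86.7, 97.7 and 87.1 FPKM in PD-L1-positive libraries, 89.6, 95.9 and 93.0 FPKM in PD-L1-negative libraries and 44.6, 48.8 and 69.4 FPKM in normal libraries. All 6 senescent libraries lay above the normal ones, of which replicate 3 was the highest. The difference was 0.78 on the log2 scale (SE 0.13, adjusted p = 0.000941, limma). WNT5B had 66.3, 72.4 and 55.4 FPKM in PD-L1-positive libraries, 55.0, 68.9 and 50.1 FPKM in PD-L1-negative libraries and 94.1, 59.4 and 45.8 FPKM in normal libraries. The groups overlapped and the normal libraries spanned the senescent ones (difference -0.06, SE 0.21, adjusted p = 0.816). Within libraries, WNT5A over WNT5B was 1.31 to 1.86 in senescent libraries and 0.474 to 1.52 in normal libraries, and normal replicate 3, at 1.52, fell within the senescent range. WNT5A held 51.7% to 58.9% of all WNT FPKM in senescent libraries and 30.7% to 55.7% in normal libraries.

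WNT2, a ligand that signals through beta-catenin, rose as well, at a lower level. It had 8.44, 7.08 and 7.65 FPKM in PD-L1-positive libraries, 7.66, 9.94 and 10.3 FPKM in PD-L1-negative libraries and 2.67, 3.90 and 4.33 FPKM in normal libraries. No normal library reached the senescent range, and the difference was 1.13 (SE 0.15, adjusted p = 0.000298). WNT3, another ligand of the beta-catenin branch, moved the other way. It had 0.854, 0.894 and 1.00 FPKM in PD-L1-positive libraries, 0.989, 0.888 and 0.887 FPKM in PD-L1-negative libraries and 2.39, 2.26 and 1.57 FPKM in normal libraries. All senescent libraries were below all normal ones (difference -0.85, SE 0.13, adjusted p = 0.000737), at about 39 to 50 estimated fragments in each senescent library. WNT2B averaged 3.03 ± 0.88 FPKM in senescent libraries (SD, n = 6) and 1.86 ± 0.70 FPKM in normal libraries (SD, n = 3), and was not called (difference 0.58, SE 0.24, adjusted p = 0.068). It was called higher without normal replicate 3 (0.78, adjusted p = 0.0307) or PD-L1-positive replicate 3 (0.70, adjusted p = 0.0292), and the difference was 0.33 without normal replicate 1 (adjusted p = 0.278).

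Of the 2 listed WNT5A transcripts, 1 was called higher and 1 was not. NM_001256105 had 72.9, 80.9 and 72.2 FPKM in PD-L1-positive libraries, 77.5, 84.9 and 78.0 FPKM in PD-L1-negative libraries and 35.2, 35.3 and 55.0 FPKM in normal libraries. The groups did not overlap, and the difference was 0.92 (SE 0.14, adjusted p = 0.0013 over 19964 transcripts, of which 16.1% were called higher). NM_003392 had 13.8, 16.9 and 14.9 FPKM in PD-L1-positive libraries, 12.1, 11.0 and 15.0 FPKM in PD-L1-negative libraries and 9.48, 13.4 and 14.4 FPKM in normal libraries. These values overlapped and were not called (difference 0.17, SE 0.15, adjusted p = 0.417). NM_001256105 carried 84.1%, 82.7% and 82.9% of WNT5A FPKM in PD-L1-positive libraries, 86.5%, 88.5% and 83.9% in PD-L1-negative libraries and 78.8%, 72.5% and 79.3% in normal libraries. The mean share was 7.92 percentage points higher in senescent cells and the ranges did not overlap. This share was chosen after its values were seen, so it is given as a description. An exact permutation test of the share gave p = 0.0238, the smallest value it can give here. Separate ranges alone fix that value, so the test adds nothing to them. The division of reads between transcripts is an estimate by the authors' software, which is not given in the sources used here.

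The promoter at the start of NM_001256105 is shown because this is the WNT5A transcript that was called. It comes from the RefSeq promoter table (build GRCh38.p14) and lies on the minus strand of chromosome 3, with a listed start 6 bases from that of NM_001256105 in the GENCODE annotation. The other listed WNT5A window is not printed: NM_003392 starts 335 bases upstream of the start listed there, so that window does not hold the sequence before it. The window runs from 250 bases before to 50 bases after the listed start, and none of the letters searched (given with DKK1) occurs in it, so no base is in capitals.
WNT5A, downstream start, chr3:55481349-55481648, minus strand: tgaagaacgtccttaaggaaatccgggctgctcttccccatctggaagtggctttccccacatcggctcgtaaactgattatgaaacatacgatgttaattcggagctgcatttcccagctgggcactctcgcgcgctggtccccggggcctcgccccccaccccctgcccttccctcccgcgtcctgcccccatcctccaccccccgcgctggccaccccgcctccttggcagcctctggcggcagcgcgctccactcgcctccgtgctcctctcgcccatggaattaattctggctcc

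This window is 63.7% G or C, against a median of 58.7% over 35116 promoters in the table.

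**Figure D2:**
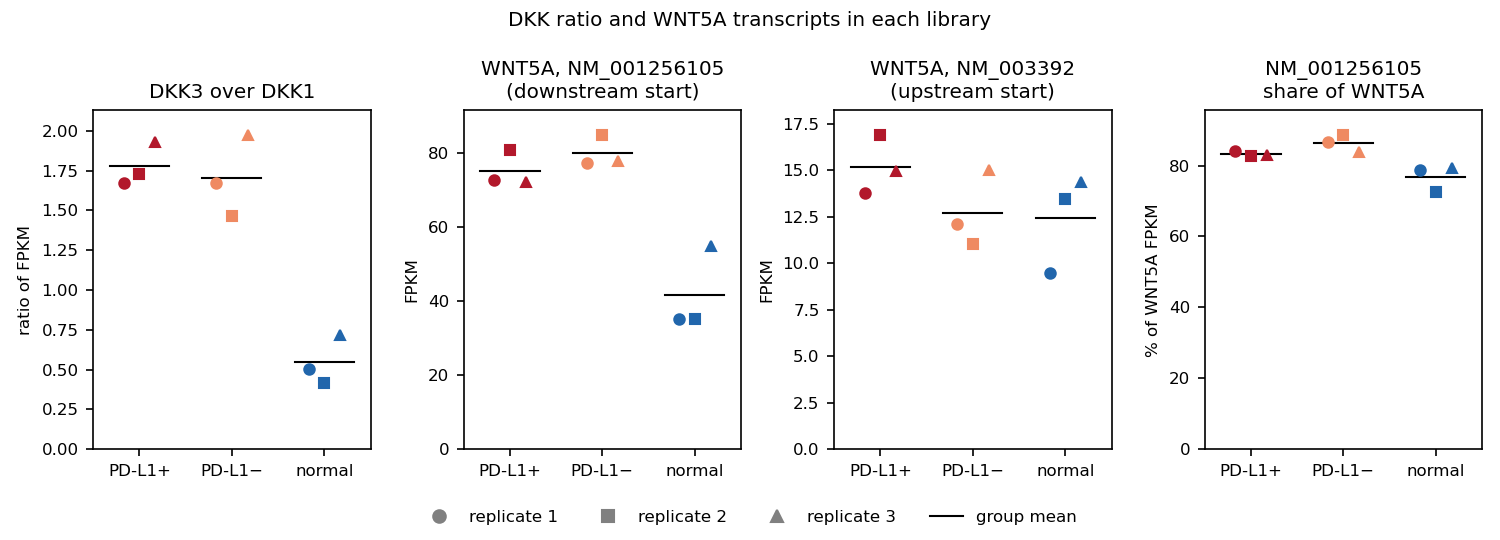
From left to right, the ratio of DKK3 to DKK1 FPKM, the FPKM of each WNT5A transcript, and the percentage of WNT5A FPKM in NM_001256105, by library; points are libraries, with a symbol for each replicate number, and lines are group means (n = 3). The DKK ratio, NM_001256105 and its share separate all senescent from all normal libraries, while NM_003392 overlaps.

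The remaining 14 ligands did not pass the filter, and none exceeded 0.740 FPKM in any library. WNT3A and WNT8A were listed at 0 in all 9 libraries. WNT11, which acts in the branch without beta-catenin, had 0.409, 0.386 and 0.276 FPKM in PD-L1-positive libraries, 0.353, 0.554 and 0.340 FPKM in PD-L1-negative libraries and was listed at 0 in all 3 normal libraries. The senescent values correspond to about 6 to 15 fragments each. WNT9A was at 0.269 to 0.740 FPKM in senescent libraries and at 0 to 0.254 FPKM in normal libraries. WNT10B was at 0.118 to 0.421 FPKM in senescent libraries and at 0.358 to 0.684 FPKM in normal libraries, with overlap. WNT7B was at 0 to 0.0346 FPKM in senescent and 0.0417 to 0.0521 FPKM in normal libraries. WNT1, WNT4, WNT6, WNT7A, WNT8B, WNT9B, WNT10A and WNT16 were at or under 0.199 FPKM everywhere. With no filter on low values, WNT11 (adjusted p = 0.000284) and WNT9A (adjusted p = 0.0161) passed the test upward and WNT7B (adjusted p = 0.0366) downward in senescent cells, the last on a few fragments per library.

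**Figure D3:**
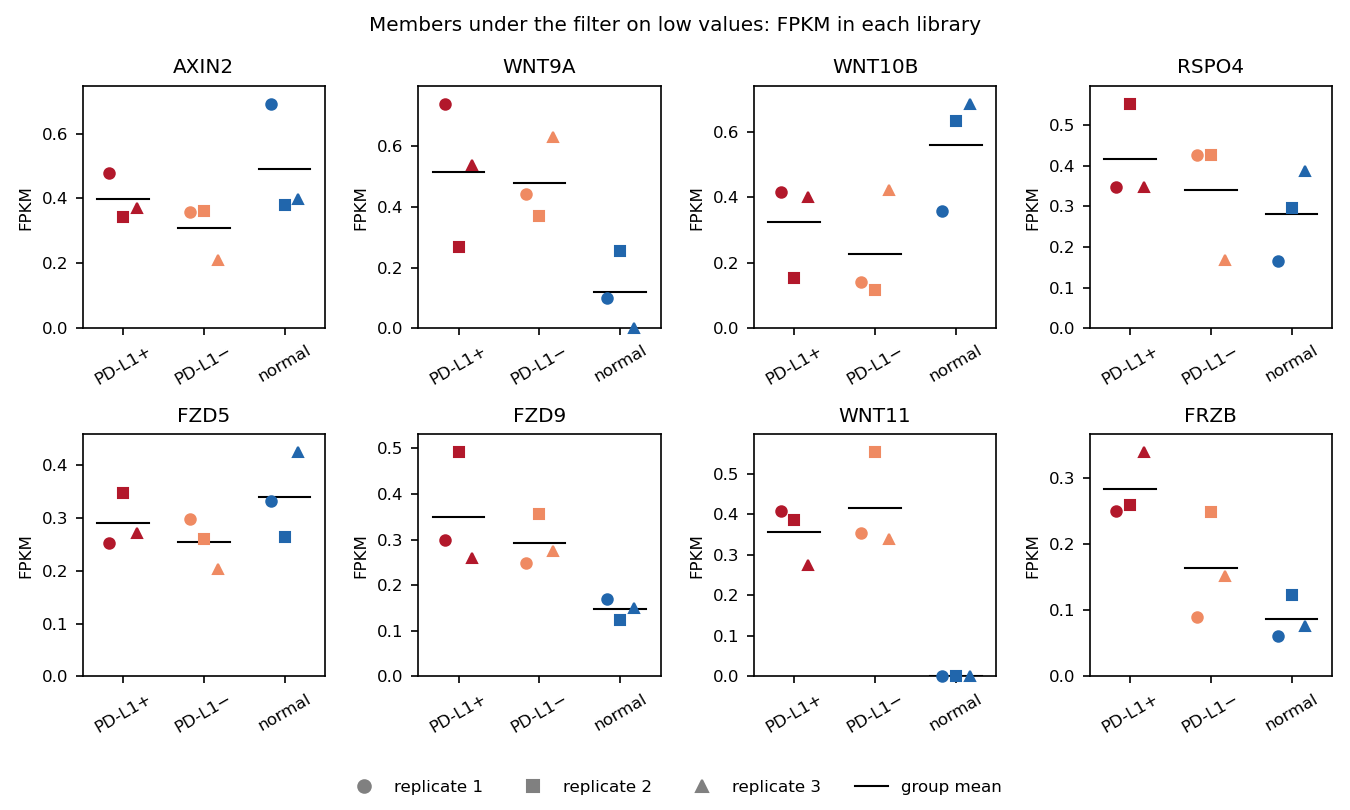
FPKM of the 8 genes with the highest mean among the 29 under the filter on low values, 1 panel per gene with its own axis from 0; points are libraries, with a symbol for each replicate number, and lines are group means (n = 3). WNT11 is listed at 0 in all 3 normal libraries and lies between 0.276 and 0.554 in the 6 senescent ones, while AXIN2, WNT10B, RSPO4, FZD5 and FRZB overlap between senescent and normal.

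Of the frizzled receptors, 6 of 10 passed the filter. Of these none rose and 2 (33.3%) fell, against 23.9% higher and 29.9% lower over all genes tested. FZD2, a receptor of both branches, had 17.6, 15.8 and 14.8 FPKM in PD-L1-positive libraries, 16.5, 17.4 and 14.9 FPKM in PD-L1-negative libraries and 25.3, 27.9 and 24.5 FPKM in normal libraries. All senescent libraries were below all normal ones (difference -0.67, SE 0.09, adjusted p = 0.000286). FZD1 had a lowest, median and highest value of 4.09, 4.82 and 5.06 FPKM in senescent libraries and of 4.95, 6.90 and 9.01 FPKM in normal libraries. Normal replicate 3 fell within the senescent range, and the difference of -0.50 (SE 0.16, adjusted p = 0.0241) was no longer called without normal replicate 1 (-0.30, adjusted p = 0.0955), normal replicate 2 (-0.48, adjusted p = 0.0765) or PD-L1-positive replicate 2 (-0.47, adjusted p = 0.0512).

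FZD7, a receptor of the beta-catenin branch, was the most abundant, with 41.1 ± 3.57 FPKM in senescent libraries (SD, n = 6) and 44.7 ± 10.6 FPKM in normal libraries (SD, n = 3). It held 48.0% to 53.3% of all FZD FPKM in senescent libraries and 37.9% to 50.7% in normal libraries, and its level was not called (difference -0.10, adjusted p = 0.567). FZD6, which is linked to cell polarity, had the smallest SE of the 6 tested receptors, at 15.3 ± 0.71 FPKM in senescent and 16.4 ± 1.65 FPKM in normal libraries (difference -0.09, 95% interval -0.28 to 0.09). FZD4, known as the receptor for norrin, averaged 3.59 ± 0.35 FPKM in senescent and 4.59 ± 1.49 FPKM in normal libraries. It was not called with all libraries (difference -0.27, adjusted p = 0.217) and was called lower without normal replicate 1 (-0.53, adjusted p = 0.00833), while without normal replicate 3 the difference was -0.08 (adjusted p = 0.691). FZD8 averaged 1.32 ± 0.57 FPKM in senescent and 1.10 ± 0.44 FPKM in normal libraries (difference 0.16, adjusted p = 0.657). FZD3, FZD5, FZD9 and FZD10 were under the filter, and FZD9 was at 0.249 to 0.492 FPKM in senescent libraries and 0.123 to 0.169 FPKM in normal libraries. With no filter on low values, FZD9 was called higher (limma, adjusted p = 0.0208), on about 5 to 19 fragments per library.

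The co-receptor LRP6 rose modestly. It had 11.4, 13.0 and 10.2 FPKM in PD-L1-positive libraries, 11.4, 8.99 and 9.16 FPKM in PD-L1-negative libraries and 6.53, 8.28 and 8.57 FPKM in normal libraries. The senescent and normal ranges did not overlap but nearly met, and the difference was 0.43 (SE 0.12, adjusted p = 0.0148). The call was lost without normal replicate 1 (0.32, adjusted p = 0.0614). LRP5, which pairs with frizzleds in the same way, averaged 3.46 ± 0.36 FPKM in senescent libraries (SD, n = 6) and 3.63 ± 0.53 FPKM in normal libraries (SD, n = 3), and was not called (difference -0.06, 95% interval -0.32 to 0.21). LRP6 exceeded LRP5 2.36 to 3.85 times in senescent libraries and 2.07 to 2.26 times in normal libraries.

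**Figure D4:**
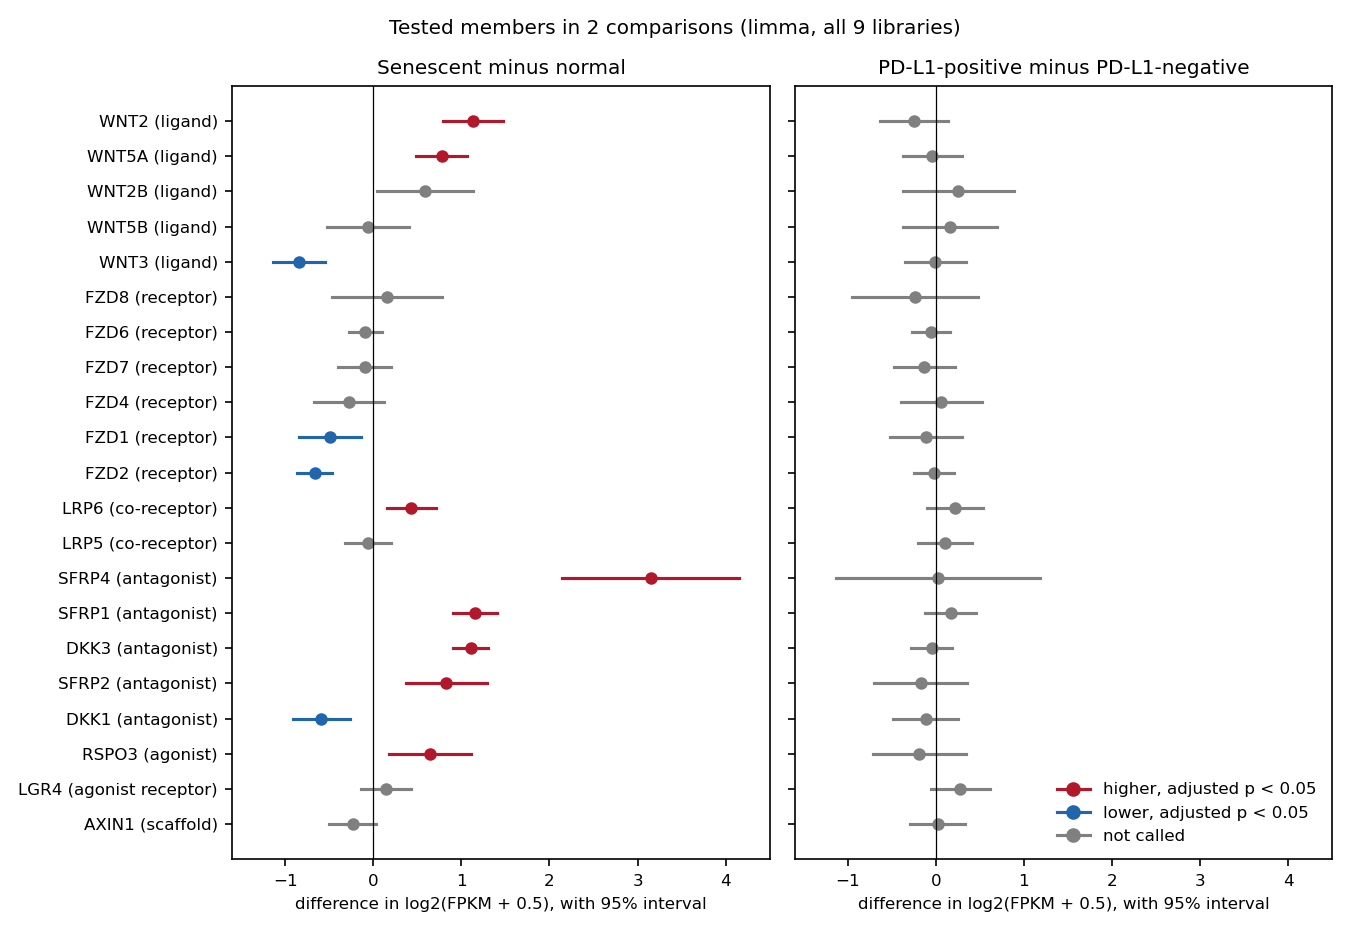
Difference in log2(FPKM + 0.5) with its 95% interval (limma) for the 21 tested genes, ordered by role, for senescent minus normal cells (left) and PD-L1-positive minus PD-L1-negative cells (right); red and blue mark genes called higher and lower. SFRP4 has the widest intervals in both panels, and no gene is called on the right.

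All 5 secreted antagonists that passed the filter were called, 4 higher and 1 lower, against 23.9% higher and 29.9% lower over all genes tested. Of these, SFRP2 and SFRP4 entered only through the senescent libraries and so had to differ, which leaves DKK1, DKK3 and SFRP1. SFRP1, a decoy that binds Wnt ligands, had 62.9, 51.4 and 57.4 FPKM in PD-L1-positive libraries, 56.7, 41.8 and 54.8 FPKM in PD-L1-negative libraries and 24.6, 24.5 and 22.6 FPKM in normal libraries. The lowest senescent library was well above the highest normal one (difference 1.15, SE 0.11, adjusted p = 6.11e-05). It held 85.3% to 94.8% of the FPKM of the 5 SFRP family genes in senescent libraries and 98.3% to 98.9% in normal libraries. The family together averaged 60.2 ± 9.87 FPKM in senescent (SD, n = 6) and 24.3 ± 1.11 FPKM in normal libraries (SD, n = 3).

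SFRP4, a related decoy, was nearly silent in normal cells. It had 9.30, 1.96 and 3.90 FPKM in PD-L1-positive libraries, 8.27, 2.09 and 3.94 FPKM in PD-L1-negative libraries and 0, 0.019 and 0.0698 FPKM in normal libraries, the last from about 0, 1 and 3 fragments. The groups did not overlap (adjusted p = 0.000421), and the fitted difference depends on the constant added, at 3.15 with 0.5 FPKM (SE 0.45), 5.06 with 0.1 FPKM and 2.35 with 1 FPKM. Values of the same replicate number lay close together in the sorted groups, with replicate 1 high and replicate 2 low in both. SFRP2, another decoy of this family, had 1.00, 0.589 and 0.665 FPKM in PD-L1-positive libraries, 1.36, 0.855 and 0.583 FPKM in PD-L1-negative libraries and 0.376, 0.118 and 0.253 FPKM in normal libraries. The senescent libraries were all higher (difference 0.83, SE 0.21, adjusted p = 0.00765), at about 16 to 34 fragments each.

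DKK1 and DKK3 were the most abundant of the 50 genes and moved in opposite directions. DKK1, which blocks LRP5 and LRP6, had 279.6, 239.6 and 217 FPKM in PD-L1-positive libraries, 262, 305 and 231 FPKM in PD-L1-negative libraries and 431, 428 and 304 FPKM in normal libraries. The highest senescent library, PD-L1-negative replicate 2, just passed normal replicate 3, so the groups overlapped narrowly, and the difference was -0.59 (SE 0.14, adjusted p = 0.00676). DKK3, a divergent member whose action on Wnt signalling varies with the cell type, had 468, 415 and 418 FPKM in PD-L1-positive libraries, 437, 447 and 456 FPKM in PD-L1-negative libraries and 218, 179 and 218 FPKM in normal libraries. No normal library came near the senescent range (difference 1.11, SE 0.09, adjusted p = 3.02e-05). All 3 listed DKK3 transcripts were called higher, NM_001018057 (1.18), NM_013253 (1.00) and NM_015881 (0.77).

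Within each library DKK3 exceeded DKK1 in senescent cells and DKK1 exceeded DKK3 in normal cells. The ratio of DKK3 to DKK1 was 1.68, 1.73 and 1.93 in PD-L1-positive libraries, 1.67, 1.47 and 1.97 in PD-L1-negative libraries and 0.506, 0.417 and 0.718 in normal libraries. This ratio does not depend on the scaling of a library. DKK3 held 59.5% to 66.3% of the FPKM of the DKK family in senescent and 29.5% to 41.8% in normal libraries, and the family sum averaged 696 ± 47.7 FPKM in senescent (SD, n = 6) and 593 ± 64.3 FPKM in normal libraries (SD, n = 3). DKK2, DKK4, FRZB, SFRP5 and WIF1 were under the filter. FRZB, a decoy of the SFRP family, was the highest of these, at 0.0890 to 0.339 FPKM in senescent and 0.0604 to 0.123 FPKM in normal libraries. These ranges overlapped, and with no filter on low values FRZB was called higher (limma, adjusted p = 0.0216), on about 3 to 14 fragments per library.

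DKK1 is itself known as a target of beta-catenin, and its promoter is shown because it was the only 1 of 39 promoters of the 34 matched genes to hold the letters CTTTGAA or CTTTGAT, the core bound by TCF/LEF factors, on either strand. These letters occur in 6.86% of the 35116 RefSeq promoters of the same length. In the sequence below (build GRCh38.p14), capitals mark CTTTGAA, which begins 95 bases before the start, and TATAAA, which begins 30 bases before it.
DKK1, chr10:52314031-52314330, plus strand: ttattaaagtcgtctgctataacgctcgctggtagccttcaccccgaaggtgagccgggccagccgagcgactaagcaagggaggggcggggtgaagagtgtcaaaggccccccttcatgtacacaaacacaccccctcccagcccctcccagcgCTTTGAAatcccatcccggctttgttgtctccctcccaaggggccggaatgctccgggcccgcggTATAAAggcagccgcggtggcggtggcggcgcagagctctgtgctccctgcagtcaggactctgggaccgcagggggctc

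TATAAA was found in 3 of the 39 promoters (DKK1, FZD8 and 1 of WNT5B) and in 11.5% of all, and the AP-1 letters TGANTCA in 0 of 39 and in 7.71% of all. Both strands were searched, and the motifs do not overlap each other in the DKK1 window. The median share of G and C was 65.5% in the 18 promoters of tested genes, 76.7% in the 21 of genes under the filter and 58.7% in all promoters.

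RSPO3, an R-spondin that raises Wnt signalling, rose and remained low in level. It had 0.849, 0.580 and 0.971 FPKM in PD-L1-positive libraries, 1.04, 0.580 and 1.39 FPKM in PD-L1-negative libraries and 0.306, 0.289 and 0.573 FPKM in normal libraries. The ranges nearly touched, and the difference was 0.64 (SE 0.21, adjusted p = 0.0243). RSPO3 passed the filter only through the senescent libraries, so the direction of its difference was set by the filter. The call was lost without normal replicate 1 (adjusted p = 0.0781) or normal replicate 2 (adjusted p = 0.0927). RSPO1, RSPO2 and RSPO4 were under the filter, and of these RSPO4, at 0.168 to 0.552 FPKM in senescent and 0.165 to 0.386 FPKM in normal libraries, had the highest mean.

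LGR4, the R-spondin receptor with nearly all the LGR RNA, had 8.57, 10.6 and 7.55 FPKM in PD-L1-positive libraries, 7.64, 7.76 and 6.25 FPKM in PD-L1-negative libraries and 7.73, 7.64 and 6.24 FPKM in normal libraries. The groups overlapped (difference 0.14, SE 0.13, adjusted p = 0.37). LGR5 and LGR6 did not exceed 0.0628 FPKM in any library. AXIN1, a scaffold of the complex that degrades beta-catenin, averaged 8.37 ± 0.95 FPKM in senescent and 9.96 ± 1.34 FPKM in normal libraries and was not called (difference -0.24, SE 0.12, adjusted p = 0.125), but was called lower with libraries scaled to an equal sum (-0.35, adjusted p = 0.029). AXIN2, a scaffold that is induced by beta-catenin in many cell types, was at 0.210 to 0.478 FPKM in senescent and 0.379 to 0.692 FPKM in normal libraries, under the filter and with overlap.

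Taken singly, each sorted group gave similar counts against the same 3 normal libraries. In PD-L1-positive against normal cells, 7 of 21 genes were higher and 4 lower, which is 52.4%, against 47.5% of all genes tested (21.1% higher and 26.3% lower). In PD-L1-negative against normal cells, 7 were higher and 3 lower, which is 47.6%, against 47.5% of all genes (21.0% higher and 26.6% lower). The higher genes include SFRP2 and SFRP4 in both comparisons and RSPO3 in PD-L1-negative cells. These passed the filter only through the senescent libraries. LRP6 was called in PD-L1-positive cells (0.54, adjusted p = 0.0122) and not in PD-L1-negative cells (0.32, adjusted p = 0.0901), and FZD1 likewise (-0.55, adjusted p = 0.0324, and -0.44, adjusted p = 0.0726). RSPO3 was called in PD-L1-negative cells (0.74, adjusted p = 0.029) and not in PD-L1-positive cells (0.55, adjusted p = 0.0827). These genes lay near the threshold, and a call in 1 sorted group only does not show that the groups differ. Both comparisons share the normal libraries, and none of these genes was called when the sorted groups were compared directly.

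Between PD-L1-positive and PD-L1-negative cells, none of the 21 genes was called (limma), none had an unadjusted p under 0.05 and none had separate ranges. Over all genes, 0.0% were called, 1.74% had an unadjusted p under 0.05 and 9.42% had separate ranges. Of the genes under the filter, FRZB was higher in all PD-L1-positive libraries than in any PD-L1-negative one, and RSPO1 and WIF1 were lower. All rest on few fragments, and with no filter on low values 0 genes of the families were called. Among the 21 genes, the 3 smallest unadjusted p (limma, fitted across all genes) were those of LGR4 (difference 0.28, SE 0.15), LRP6 (0.22, SE 0.14) and WNT2 (-0.24, SE 0.17), each with an adjusted p of 1. The 95% intervals of the difference were -0.05 to 0.61 for LGR4, -0.10 to 0.54 for LRP6 and -0.63 to 0.14 for WNT2. They were -0.28 to 0.19 for DKK3, -0.49 to 0.25 for DKK1, -0.12 to 0.45 for SFRP1 and -0.37 to 0.29 for WNT5A. For SFRP4, whose replicates spread most, the interval was -1.13 to 1.18, the widest of the 21 genes. SFRP4 values of the same replicate number lay close together in the sorted groups. The fit did not take these numbers as pairs, so the spread between numbers enters this width. These intervals rest on 1 estimate of spread from all 9 libraries, so the spread of the normal libraries enters their widths. At these widths, smaller differences between the sorted groups were not detectable in this fit. A fit of the sorted libraries alone also called 0 of the 21 genes.

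For 10 of the 12 genes called in senescent against normal cells, the normal library nearest to the senescent mean was replicate 3. For the other 2 it was replicate 1. This count was not made over all genes, so it does not set these genes apart from the transcriptome. Normal replicate 3 also had the lowest MKI67 of the normal group. All 6 proliferation markers were lower in senescent cells (MKI67 4.14 ± 1.45 FPKM, SD, n = 6, against 35.8 ± 24.4 FPKM in normal, SD, n = 3). Their part in the differences above was not tested. Without normal replicate 3, 9 of the 21 genes were higher and 4 lower, and without normal replicate 1, 6 were higher and 4 lower. These counts were not made over all genes either.

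Outside the families, genes that release or spread Wnt ligands rose where they changed: 4 of 10 tested were higher and 0 lower in senescent cells, against 23.9% higher and 29.9% lower over all genes. WLS, the carrier that takes Wnt proteins to the cell surface, averaged 39.2 ± 2.75 FPKM in senescent libraries (SD, n = 6) and 17.4 ± 3.20 FPKM in normal libraries (SD, n = 3; difference 1.16, adjusted p = 6.53e-05). SULF2, which trims heparan sulfate, averaged 17.9 ± 2.52 FPKM in senescent and 3.15 ± 2.22 FPKM in normal libraries (difference 2.51). The heparan sulfate proteoglycans GPC3 (1.86) and GPC6 (0.72) were the others.

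**Figure D5:**
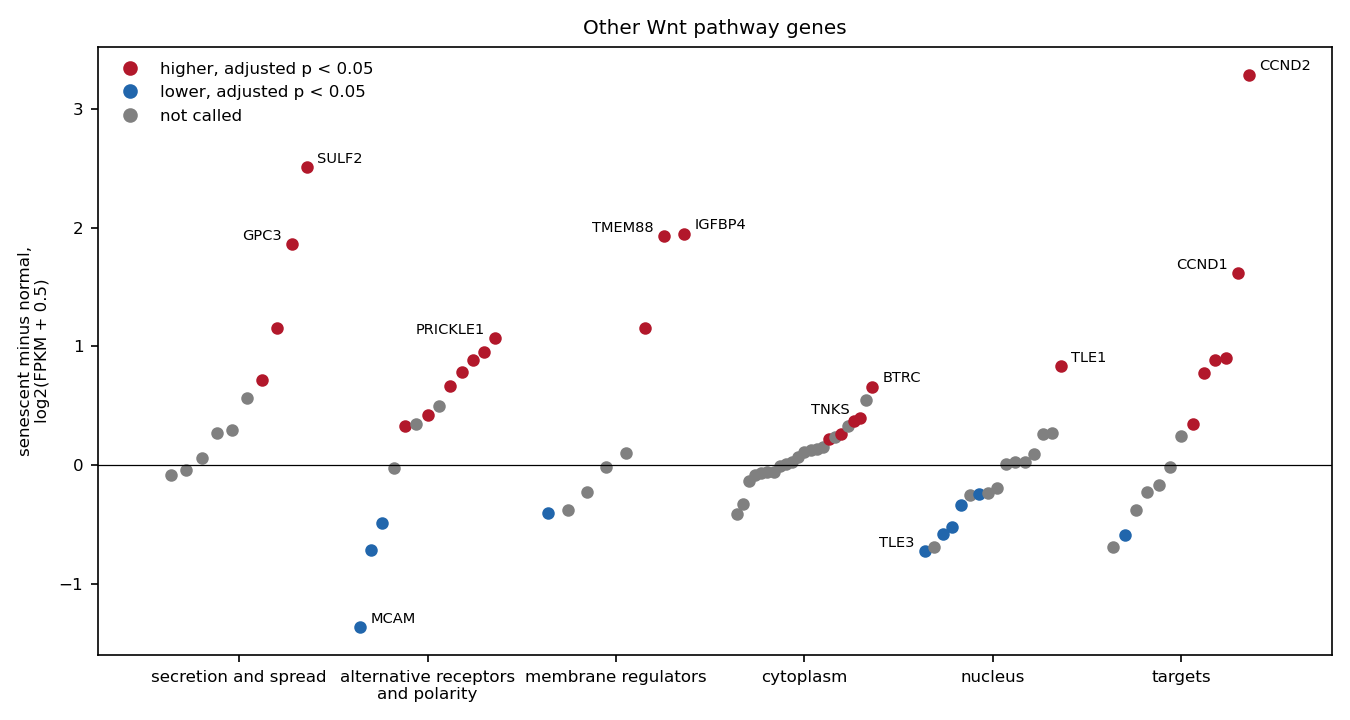
Difference in log2(FPKM + 0.5), senescent minus normal, for the tested genes of 6 lists of other Wnt pathway genes; each point is a gene, ordered by value within its list, red and blue mark genes called higher and lower, and the called genes with the largest differences are named, at most 2 per list. The targets list contains DKK1, which is also one of the genes described above. Called genes of the secretion list lie above 0 and most called genes of the nuclear list lie below it.

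Of 13 tested genes for alternative receptors and cell polarity, 7 were higher and 3 lower, against 23.9% and 29.9% of all genes. PTK7, a polarity co-receptor, averaged 112 ± 6.80 FPKM in senescent and 59.3 ± 17.7 FPKM in normal libraries (difference 0.95, adjusted p = 0.000707). PRICKLE1, a core polarity protein, rose (1.07), as did CELSR3, a polarity cadherin (0.88), which passed the filter only through the senescent libraries (0.962 FPKM in senescent and 0.292 FPKM in normal libraries on average). MCAM, a surface adhesion molecule that can bind WNT5A, fell, with 4.95 ± 0.78 FPKM in senescent and 14.1 ± 4.90 FPKM in normal libraries (-1.37, adjusted p = 0.000566). ROR1 (0.50, adjusted p = 0.0509) was not called.

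Of 8 tested regulators at the membrane or outside the cell, 3 were higher and 1 lower, against the same shares of all genes. IGFBP4, an IGF-binding protein that can also bind FZD8 and LRP6, averaged 2359 ± 254 FPKM in senescent and 629 ± 210 FPKM in normal libraries (difference 1.95, adjusted p = 5.49e-05). TMEM88, a membrane protein that binds Dishevelled, and SERPINF1, which binds LRP6, were the others that rose (1.93 and 1.15), and LYPD6, which enhances LRP6 signalling, fell (-0.41).

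Inside the cell, 5 of 23 tested genes of the cytoplasmic list were higher and 0 lower, against 23.9% higher and 29.9% lower over all genes. The share of higher genes was near the background and that of lower genes was below it, and this was not tested. The largest differences among these 5 were those of BTRC, a ubiquitin ligase subunit that marks beta-catenin for degradation (0.66, adjusted p = 0.00104), TNKS, which marks AXIN (0.40), TNIK (0.37) and FBXW11 (0.26). CTNNB1, the gene for beta-catenin, averaged 95.6 FPKM in senescent and 105 FPKM in normal libraries and was not called (adjusted p = 0.132). Of 16 nuclear genes, 1 was higher and 5 lower, against 23.9% and 29.9% of all genes. TLE1, a co-repressor of TCF factors, rose (0.84), whereas the related TLE3 and TLE4 fell (-0.72 and -0.58), as did the co-activator CREBBP (-0.52).

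Of 13 tested genes listed as targets in various cell types, 6 were higher and 1, DKK1, was lower, against 23.9% and 29.9% of all genes. CCND2, a cyclin, averaged 5.15 ± 1.62 FPKM in senescent and 0.0535 ± 0.0261 FPKM in normal libraries (difference 3.29, adjusted p = 1.85e-05), and passed the filter only through the senescent libraries, so it had to differ. CCND1 averaged 602 ± 68.4 FPKM in senescent and 205 ± 86.9 FPKM in normal libraries (1.62), and the transcription factor genes JUN (0.90) and ID2 (0.89) followed. All 4 are also known to respond to other pathways. NKD1, SP5, LEF1, NOTUM and LGR5, which are widely used readouts of beta-catenin activity, were under the filter along with AXIN2. The listed targets that passed the filter and were not called were TCF7 (-0.69), ZNRF3 (-0.38), TNFRSF19 (-0.17), BMP4 (0.25), FOSL1 (-0.23) and APCDD1 (-0.01). Between PD-L1-positive and PD-L1-negative cells, 0 genes of these 6 lists were called and 0 had an unadjusted p under 0.05 (limma).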

How the data were processed

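PolyA RNA of 9 libraries (3 per group) was sequenced with a strand-keeping kit, per the labels' protocols. The authors deposited FPKM values for 52741 RefSeq transcripts with 26196 gene symbols. Build hg19, the aligner STAR (2.5.2a), HTSeq (0.11.2) and DESeq2 (1.22.2) are named, with no roles, per the submitters' processing notes. The program that computed FPKM and whether the counting used strand are not given in the sources used here, so reads of an antisense or overlapping gene cannot be told apart from a gene's own. No counts were used, and columns without a sample numbered 0. Depth was estimated from the steps between low FPKM of 7210 genes of 1500 to 6000 bases with GENCODE lengths.

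Transcripts were summed per symbol. limma 3.58.1 (R 4.3.3) with an intensity trend was fitted to log2(FPKM + 0.5) for genes averaging at least 0.5 FPKM, with 4 contrasts and 6 residual degrees of freedom, and was tested on simulated data. Tables were made with Python 3.11.15. Promoters (RefSeq, GRCh38.p14) matched 34 of the 50 genes by symbol. They come from another build than the FPKM, and no coordinates were converted. Alternatives covered the pseudocount, filter, scaling, trend, library weights, a replicate block, the libraries fitted, leaving out each library and the threshold. The 50 genes and all gene lists were chosen with earlier results of these data known. Library values are given in full for called genes with a log2 difference of at least 0.5 and for the 3 smallest p between sorted groups, and at most 4 called genes are named per list, by size of difference. A deposited table of motif enrichment scores was not used.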

Additional observations from a re-analysis of the deposited data

How the results depend on the processing

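With estimated library weights, which did not converge fully, 5 genes were higher and 2 lower in senescent against normal cells, and 2 were lower in PD-L1-positive against normal cells, against 8, 4 and 4 with equal weights; the cause was not tested. At an adjusted p under 0.01, 2 were lower in PD-L1-positive against normal cells. With no filter on low values, 11 were higher in PD-L1-positive and 12 in PD-L1-negative against normal cells, against 7 in each, since more of the 50 genes were tested. Leaving out 1 library at a time gave 6 to 9 higher and 3 to 4 lower in senescent, 6 to 9 higher and 3 to 4 lower in PD-L1-positive, and 6 to 7 higher and 2 to 4 lower in PD-L1-negative against normal cells, and 0 between the sorted groups. The share of all genes called was not counted under these settings or with the replicate block below, so the shifts do not set these genes apart. For single genes, 1735 values were recomputed for 84 differences: 1668 stayed on the same side of the threshold, of which 51 were uncalled differences that changed sign, 50 lost the call, 17 gained it, and no called difference changed sign. In senescent against normal cells, SFRP2 (adjusted p = 0.0507) and RSPO3 (0.0967) lost the call under quantile normalization and LRP6 (0.0834) with libraries scaled to an equal sum, which moved the median of all genes to -0.15. The cause was not tested.

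Same-numbered sorted libraries deviated together with correlations of 0.0942 to 0.457, against -0.307 to 0.141 for sorted libraries of different numbers. Normal with sorted libraries of the same number had -0.0111 to 0.132. The main fit did not take the numbers as pairs, so any matching of the sorted libraries by number is left out of it. With a replicate block, 8 genes were higher and 5 lower in senescent against normal cells, 9 and 4 in PD-L1-positive, 7 and 4 in PD-L1-negative, and 0 between the sorted groups. The block added calls for AXIN1 in senescent (lower, adjusted p = 0.0401), RSPO3 (higher, 0.0246) and LGR4 (higher, 0.045) in PD-L1-positive and FZD1 (lower, 0.0481) in PD-L1-negative against normal cells. At 11600000 to 17700000 fragments per library, genes under the filter had at most about 52 fragments in a library (AXIN2, normal replicate 1), where this was estimated. SFRP2 and RSPO3, which passed the filter, had similar numbers, at about 4 to 53. The 3 libraries per group limit what can be seen between the sorted groups.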
